A study of Mus musculus with 6 samples.

Results

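The RUNX genes and their partner form a set of 4 mouse genes. Runx1, Runx2 and Runx3 encode the DNA-binding subunits of the RUNX transcription factors, and Cbfb encodes the subunit that binds them and steadies them on DNA. Peaks of Runx1 chromatin immunoprecipitation and sequencing (ChIP-seq) were taken as belonging to a gene when they met its body or the 10 kb on either side, in RefSeq coordinates of build mm10. The 4 loci held 10 of 25052 peaks in the sham library, 48 of 56316 at D14 and 4 of 15009 at D56. The rule used no measured value.

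The cells were GFP+ lung fibroblasts of Col1a2-CreERT2;mTmG mice, in which Cre driven by the collagen gene Col1a2 switches a reporter to green. All groups carried both alleles. The sham group had a sham injury. The D14 and D56 groups were taken 14 and 56 days after bleomycin into the trachea, which injures the lung and brings on fibrosis. There was 1 Runx1 ChIP library and 1 input library per condition, so no comparison between conditions has replicates or a test. Neither the interval from the sham injury to collection nor the mice's age and number per library is stated in the labels.

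RUNX proteins bind DNA through the Runt domain, which reads the letters TGTGGT. On the other strand these letters read ACCACA. Each RUNX gene is transcribed from a distal and a proximal promoter, which give proteins with different first residues, and RUNX proteins are known to act on RUNX promoters. Runx1 is best known for blood formation, Runx2 for bone and Runx3 for T cells and sensory neurons. The peak lists show where Runx1 was called at these genes. They hold no expression values.

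The deepest ChIP library was that of D14, with 78744701 tags against 48816721 for sham and 49669125 for D56. The input depths were 49312043, 39609538 and 19949187 in the same order. The lowest pileup in a list, that is the height of the fragment signal at the summit, was 14 in sham, 13 at D14 and 10 at D56. Peaks lay at 6 of 7 fibroblast marker genes in each library, and at 1, 2 and 1 of 5 leukocyte, 3, 4 and 1 of 4 epithelial and 2, 4 and 2 of 4 endothelial marker genes (sham, D14, D56). Erg is counted both as an endothelial marker and as a partner gene below. A peak at a marker gene is not a measure of its expression, and the part of other cell types in the results below was not tested.

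The sequences that carry the main findings are those at the starts of these genes, because 3 of the 4 places called in every library lay at an annotated start, of Runx1, Cbfb and a gene that overlaps Runx2. Sequences are RefSeq's (GRCm38.p6, the mm10 assembly), which gave 6 start windows for the 4 genes, each 250 bases before to 50 after the start: distal and proximal for Runx1 and Runx3, and 1 each for Runx2 and Cbfb. They were searched on both strands for TGTGGT, the RUNX variant TGCGGT, the AP-1 letters TGANTCA and the ETS letters CCGGAA. The 250 bases before the starts of Runx1 (proximal, chr16:92697330-92697579, minus strand), Cbfb (chr8:105170424-105170673, plus strand) and Supt3, the gene that overlaps Runx2 (chr17:44776916-44777165, plus strand), follow, 5′ to 3′, with matches in capitals.
Runx1 proximal: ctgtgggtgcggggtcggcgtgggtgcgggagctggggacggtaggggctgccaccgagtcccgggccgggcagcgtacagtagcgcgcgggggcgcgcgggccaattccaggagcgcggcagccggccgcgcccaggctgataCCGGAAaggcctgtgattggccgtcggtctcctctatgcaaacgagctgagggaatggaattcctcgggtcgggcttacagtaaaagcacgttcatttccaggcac
Cbfb: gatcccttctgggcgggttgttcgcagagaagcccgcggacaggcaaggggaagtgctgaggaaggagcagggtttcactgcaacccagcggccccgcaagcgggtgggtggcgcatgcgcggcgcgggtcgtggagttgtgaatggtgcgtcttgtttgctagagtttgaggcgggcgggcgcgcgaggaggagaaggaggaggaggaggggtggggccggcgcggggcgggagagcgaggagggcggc
Supt3: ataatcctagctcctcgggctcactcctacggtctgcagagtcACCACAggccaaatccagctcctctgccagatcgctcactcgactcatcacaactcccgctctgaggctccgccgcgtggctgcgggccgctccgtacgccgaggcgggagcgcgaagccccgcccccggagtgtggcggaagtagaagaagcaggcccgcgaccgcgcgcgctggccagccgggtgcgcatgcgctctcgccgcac
The Supt3 window held ACCACA, that is TGTGGT on the opposite strand, once, 207 bases before the start. The Runx1 and Cbfb windows held neither the RUNX letters nor their variant, and none of the 3 held the AP-1 letters. The Runx1 window held CCGGAA once, 106 bases before the start, and the Cbfb window had no match. The GC content was 69.0% (Runx1), 69.7% (Cbfb) and 70.0% (Supt3), against a median of 52.7% over 32851 start windows.

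The most upstream start windows of the 3 RUNX genes share a different feature. They hold an identical run of 18 bases with TGTGGT on the opposite strand 2 times, 8 bases apart. It is shown here in 30 bases of each gene, with the ACCACA copies in capitals, for Runx1 (chr16:92826025-92826054, minus strand), Runx2 (chr17:44814583-44814612, minus strand) and Runx3 (chr4:135120503-135120532, plus strand).
Runx1 distal: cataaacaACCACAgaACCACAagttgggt
Runx2: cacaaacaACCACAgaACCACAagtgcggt
Runx3 distal: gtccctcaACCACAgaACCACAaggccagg
The run was found in 4 of 32851 start windows, those of the 3 RUNX genes and of Gm16225, a lncRNA gene whose window overlaps that of Runx3. It began 26 bases after the Runx1 start, 21 after the Runx2 start and 136 before the Runx3 start. TGTGGT anywhere in the window was common, at 16.8% of all windows. The run was singled out after the sequences had been seen.

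In the full lists, called Runx1 peaks were most numerous at D14 at each of the 4 genes. The D14 list held 24 peaks for Runx1, against 4 for sham and 2 for D56. Runx2 had 14, 3 and 1 in the same order. Runx3 had 4 at D14 and none elsewhere, and Cbfb had 6, 3 and 1. Peaks were thus called at Runx1, Runx2 and Cbfb in all 3 libraries and at Runx3 at D14 alone. Of all protein-coding genes, 12.6% had peaks at D14 alone and 51.4% had more at D14 than in sham. Limited to the 15009 strongest peaks of each library by p-value, sham and D14 had 2 and 3 peaks at Runx1, 2 and 2 at Runx2, 0 and 0 at Runx3, and 2 and 2 at Cbfb. By fold the numbers were the same except at Cbfb, with 3 in sham and 2 at D14. The larger D14 numbers at Runx2, Runx3 and Cbfb are thus not seen at equal list length, and at Runx1 only 3 against 2 remained. Over all 21887 protein-coding genes, 60.3% had a peak in sham, 73.3% at D14 and 53.7% at D56, so having a peak does not set the members apart. The D14 list is the longest and its ChIP library the deepest, and the part of depth in the D14 numbers was not tested. In bulk ChIP, more bound cells and more binding per cell cannot be told apart.

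**Figure D1:**
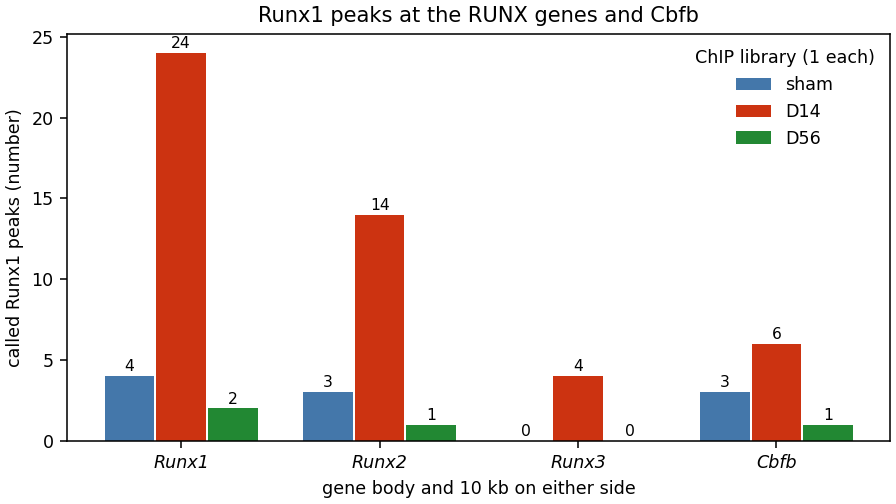
Number of called Runx1 peaks (vertical axis) at each gene with 10 kb on either side (horizontal axis), by ChIP library, 1 per condition. The D14 bar is the tallest at each gene, with 24 peaks at Runx1, and Runx3 has peaks at D14 alone.

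Long genes meet more peaks, and the members differ in length. Runx1 spans 224.6 kb of chromosome 16 (92601466 to 92826074), Runx2 318.8 kb of chromosome 17 (44495987 to 44814797), Runx3 57.3 kb of chromosome 4 (135120645 to 135177990) and Cbfb 47.3 kb of chromosome 8 (105170674 to 105217989). Per 100 kb of locus, Runx1 had 9.81 peaks at D14, Cbfb 8.91, Runx3 5.17 and Runx2 4.13.

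Among protein-coding genes from 20% shorter to 25% longer than itself, Runx1 stood near the top at D14. Its 24 D14 peaks compare with a median of 5 over 523 such genes, of which 13 had more. In sham its 4 peaks compare with a median of 1, and 104 genes had more. At D56 its 2 peaks compare with a median of 1, and 91 had more. Cbfb had 6 D14 peaks against a median of 2 over 2067 genes, with 177 above it. Runx2 had 14 against 6 over 351 genes, with 71 above it, and Runx3 4 against 2 over 1823, with 378 above it. In sham, Cbfb had 3 peaks against a median of 1, with 152 above it, Runx2 had 3 against 2, with 102 above it, and Runx3 had 0 against 1, with 1349 above it. At D56, Cbfb and Runx2 each had 1 peak, equal to the median, with 454 and 129 above them, and Runx3 had 0 against 1, with 1212 above it. Cbfb thus ranked about as high in sham (85.1% of genes had fewer) as at D14 (88.0%), and Runx3 was among the genes with no peak in sham and at D56. These ranks describe 1 library each and were not tested.

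The sham and D56 peaks at these genes were all among the places called at D14. All 10 sham peaks overlapped a D14 peak by 1 bp or more (100%, 95% Wilson interval 72.2 to 100), against 91.7% of all sham peaks. All 4 D56 peaks overlapped both a D14 peak and a sham peak, against 99.4% and 96.4% of all D56 peaks. These shares are near the background. Overlapping peaks were joined into 48 regions across libraries. D14 alone gave 38 of the regions, sham together with D14 gave 6, and every library shared the other 4. No region was called in sham or at D56 without D14. In the whole D14 list, 58.0% of peaks had no overlap in either other library, 16.3% had one in sham and not at D56, and 24.8% had one in both.

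The 4 regions called in every library were 2 at Runx1, 1 at Runx2 and 1 at Cbfb. The first lay over the proximal start of Runx1, the promoter inside the gene that is 128.7 kb downstream of the distal one. Its peak ran from 92697150 to 92697897 in sham (pileup 109, fold enrichment 10.05), from 92697179 to 92697865 at D14 (117, 20.18) and from 92697266 to 92697538 at D56 (39, 8.5). Fold enrichment is the pileup over the local background as the authors' caller gave it, and neither value is on a common scale between libraries. The 3 summits lay within 46 bp of each other, 68, 114 and 74 bp before the start. They were 33, 8 and 27 bp from the CCGGAA letters printed above. This peak had the highest fold of any at the 4 loci at D14. By fold it stood at percentile 95.1 of the D14 list, 92.3 of the sham list and 67.9 of the D56 list. By pileup the percentiles were 91.8, 97.0 and 85.1 in the same order. The D14 peaks over the starts of Supt3 and D230025D16Rik had higher pileups, 134 and 118. The D56 list is the shortest and holds fewer weak peaks. Percentiles of unlike lists cannot show whether this peak changed, and a change was not tested.

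The second constant region at Runx1 was a weaker one before the same start, with summits 1397 bp (sham), 1538 bp (D14) and 1499 bp (D56) upstream. It had a fold of 3.63 in sham, 6.72 at D14 and 4.88 at D56, with pileups of 31, 50 and 14. The D56 pileup of 14 is close to the lowest in that list, 10. A further peak, with its summit 564 bp after the start in sham and 485 bp after it at D14 (folds 4.81 and 5.38), was not called at D56. Around the proximal start, sham thus had 3 peaks, D14 4 and D56 2.

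The Cbfb start had a peak in every library. It ran from 105170332 to 105170940 in sham (pileup 56, fold 9.63), from 105170306 to 105171063 at D14 (95, 18.82) and from 105170424 to 105170867 at D56 (27, 10.89). The summits lay 113, 166 and 85 bp before the start, within 81 bp of each other. A smaller peak inside the gene, with its summit 900 bp after the start in sham and 826 bp at D14, had folds of 4.92 and 5.59 and was not called at D56.

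The constant region inside Runx2 lay at the start of another gene. It covered the start of Supt3, a gene for a subunit of the SAGA coactivator complex, whose body overlaps the upstream part of Runx2 and which is read from the opposite strand. The peak ran from 44776891 to 44777273 in sham (pileup 74, fold 10.12), from 44776794 to 44777751 at D14 (134, 16.88) and from 44776890 to 44777249 at D56 (40, 10.29), with summits within 21 bp of each other. This was the only D56 peak counted for Runx2, and it lay 37.7 kb inside the gene from its upstream end. Whether it belongs to Runx2 or Supt3 cannot be told apart from position. Without it, Runx2 had 13 D14 peaks, 2 sham peaks and no D56 peak. The Cbfb locus had a like case, a peak over the start of its neighbour D230025D16Rik (folds 4.8 in sham and 9.23 at D14), which lay outside the Cbfb body and was not called at D56.

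**Figure D2:**
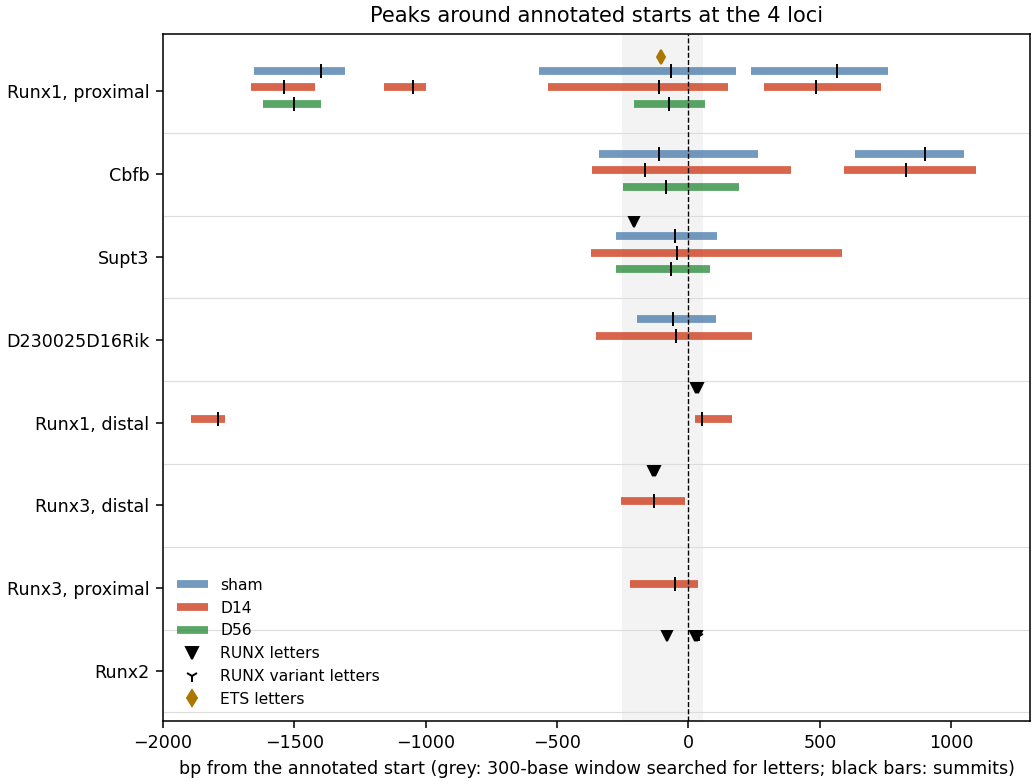
Extent of each peak (coloured bars) and its summit (black bars) around 8 annotated starts, in bp from the start, with positive values into the gene, and letter matches as symbols. The starts of Runx1 (proximal), Cbfb and Supt3 have a peak in all 3 libraries, the distal Runx1 start and both Runx3 starts at D14 alone, and the Runx2 start in none.

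The other RUNX gene starts in the table were called at D14 alone or not at all. Of the 6 start windows, 2 met a peak in sham, 5 at D14 and 2 at D56, against 31.7%, 40.2% and 27.0% of all 32851 windows. The distal Runx1 start had a D14 peak from 92825907 to 92826049, with pileup 27, fold 4.08 and −log10 q 7.8. At 143 bp it was 1 of the narrow, weak peaks of its list (percentile 20.4), where the fragment length was 132 bp. The distal Runx3 start had a D14 peak from 135120388 to 135120633 with pileup 31 and fold 6.46, and the proximal Runx3 start one from 135152323 to 135152582 with pileup 18 and fold 4.42. The Runx2 start window had no peak in any library. The table used gives 1 start for Runx2, so a second Runx2 promoter was not analysed here.

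At 2 of the 3 starts that share the 18-base run, the D14 summit lay on it or close by. The Runx3 summit fell inside the run and inside an ACCACA copy, 0 bp from it. The Runx1 summit lay 8 bp from the run and 10 bp from the nearer copy. Runx2 holds the same run and had no peak over it in any library. Of the 3 member windows with TGTGGT, 2 met a peak at D14 and none did in sham or at D56. Of the 3 without it, 2 met a peak in sham, all 3 at D14 and 2 at D56. The Supt3 window inside Runx2, which is no member's own start, holds TGTGGT once and met a peak in every library. Its summits lay 152 bp (sham), 158 bp (D14) and 137 bp (D56) from those letters.

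Over all start windows the 4 sets of letters differed in direction. Windows with TGTGGT met a D14 peak in 27.4% of cases and windows without it in 42.8%. For the RUNX variant TGCGGT the order was the opposite, 64.4% with it and 38.6% without. Windows with TGANTCA met a D14 peak in 26.7% of cases, against 41.4% without, and those with CCGGAA in 77.0%, against 33.8%. The order of each pair was the same in sham and at D56. The median GC content was 50% with TGTGGT and 53.7% without, 60.0% with TGCGGT and 52.3% without, and 60.0% with CCGGAA and 51.3% without. The member windows without TGTGGT had 69.0 to 77.3% GC, and those with it 45.0 to 63.7%. The part of base composition in these shares was not tested. A match of letters is a description and not a measured site.

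Along the Runx1 gene, the 24 D14 peaks fell into 6 groups separated by more than 15 kb. The largest, 9 peaks between 92608287 and 92632342, lay 193.8 to 217.7 kb from the gene start, in the last part of the gene. It held 1 sham peak and no D56 peak. Its strongest peak (92620794 to 92621100, pileup 75, fold 10.38) had the highest fold of the 38 peaks called at D14 alone. The group around the proximal start held 5 D14 peaks, 3 sham and both D56 peaks.

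Another group of 5 D14 peaks lay between 92778068 and 92797147, 29.1 to 47.8 kb inside the gene from the distal start, and held no sham or D56 peak. Its folds ran from 4.13 to 9.72, the highest at 92788387 to 92788946 (pileup 63). The other D14 peaks were 2 at 85.8 and 87.8 kb (folds 3.63 and 3.45), 1 at 64.0 kb over the start of the lncRNA gene Gm30281 (fold 4.25), and 2 near the distal start. The gene table gives no exons, so exons and introns were not told apart.

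**Figure D3:**
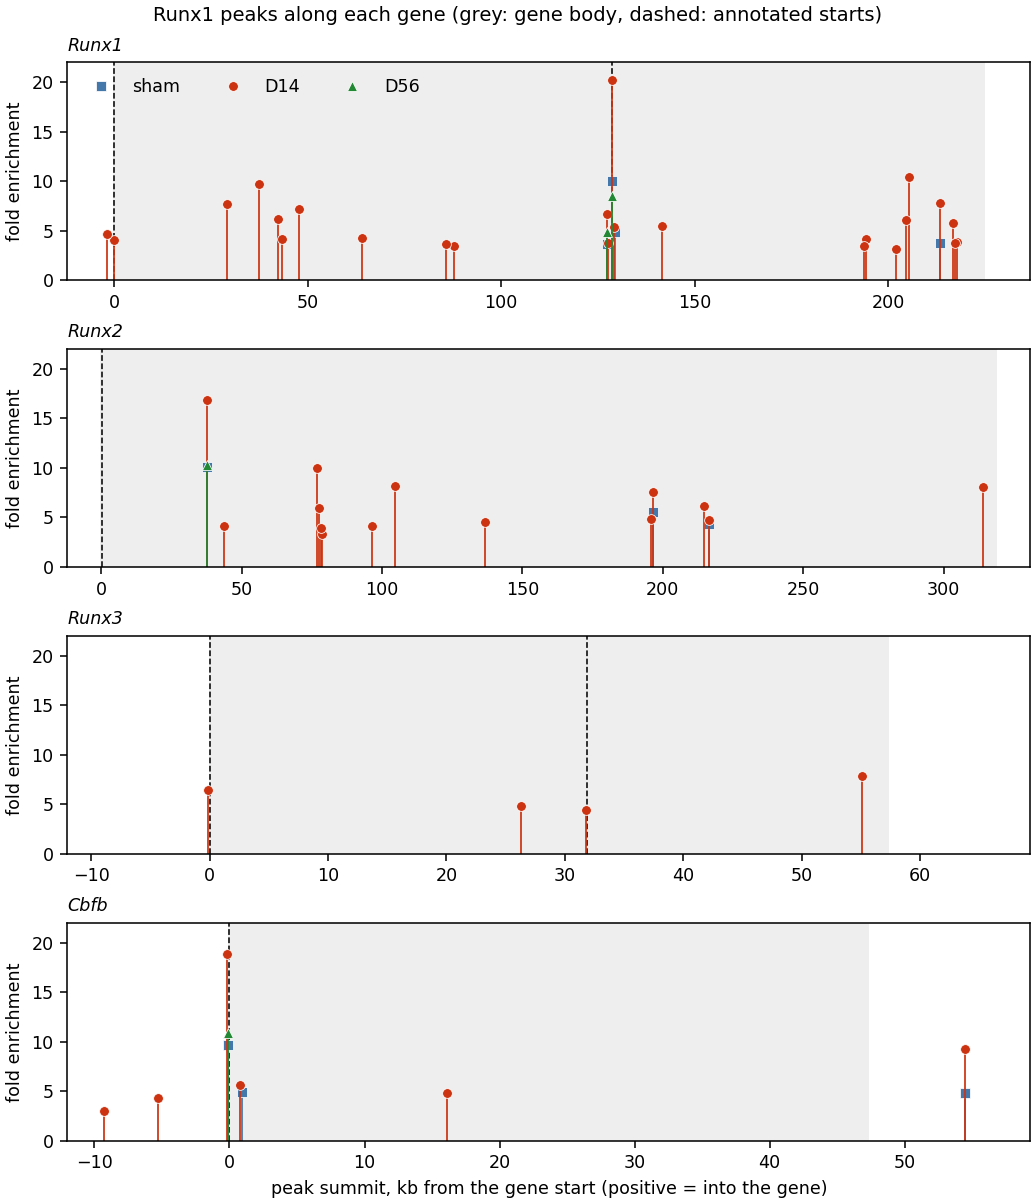
Fold enrichment of each peak (vertical axis) by the position of its summit in kb from the gene start (horizontal axis), for the 4 genes, with markers for the libraries. The highest point at Runx1 (20.18 at D14) lies on the proximal start, at Runx2 on the Supt3 start and at Cbfb on the gene's own start, and the D14 points without sham or D56 neighbours lie under a fold of 10 except for 10.38 at Runx1 and 10.02 at Runx2.

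At Runx2, 13 of the 14 D14 peaks lay away from the Supt3 start and all were inside the gene. Sham had 2 of these, at 44598090 to 44598332 (fold 4.35) and 44618299 to 44618501 (5.51), and both overlapped D14 peaks (folds 4.7 and 7.6). The other 11 were called at D14 alone. The tightest group, 4 peaks between 44735870 and 44738420, was 76.7 to 78.8 kb from the gene start and had folds of 3.3 to 10.02. Single stronger peaks lay at 44709933 to 44710219 (8.21) and near the end of the gene at 44500260 to 44500870 (8.1).

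The remaining members' peaks were few. Beside its start peaks, Runx3 had D14 peaks at 135146664 to 135147090 (fold 4.83), before the proximal start, and at 135175508 to 135175882 (7.89), near the end of the gene. The second was the strongest at Runx3, with a pileup of 46. Cbfb had 3 peaks at D14 alone, with folds of 3.01 to 4.83. They lay 9.3 and 5.3 kb before the start and 16.1 kb inside the gene.

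**Figure D4:**
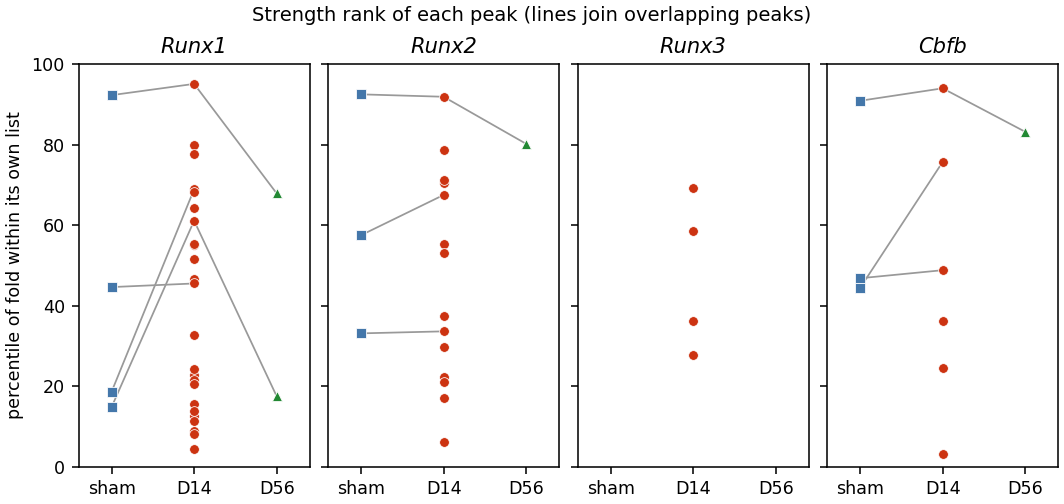
Percentile of the fold enrichment of each peak within its own list (vertical axis) by library, with lines joining overlapping peaks. The peaks over the proximal Runx1 start, the Supt3 start inside Runx2 and the Cbfb start rank highest by fold at these genes, at percentiles 95.1, 91.9 and 94.0 of the D14 list.

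The peaks called at D14 alone had a lower median fold than the constant ones, with ranges that overlapped. The 38 had folds of 3.01 to 10.38 with a median of 4.57, and pileups of 18 to 75. The 6 regions shared by sham and D14 had D14 folds of 4.7 to 9.23, and the 4 regions of all 3 libraries 6.72 to 20.18 (median 17.85). The whole D14 list had the same order, with a median fold of 4.75 for peaks in neither other list, 6.05 for those in sham alone and 13.19 for those in both. Of the 38, 4 met a start window of a member or neighbour, and of the 4 constant regions 3 did.

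Of the 48 D14 peaks at the members, 38 had no sham overlap (79.2%, 65.7 to 88.3), against 58.9% of all D14 peaks. Among D14 peaks of like fold (20 bins) and like position at a start window or not, the share was 66.7%, or 32.0 peaks of 48. By gene, 20 of 24 lacked it at Runx1 (83.3%, 69.6% in peaks of like fold), 11 of 14 at Runx2 (78.6%, 64.7%), 4 of 4 at Runx3 (100%, 68.9%) and 3 of 6 at Cbfb (57.9% in peaks of like fold). Against sham, Cbfb thus had a slightly lower share than peaks of like fold (3 peaks against 3.5) and the RUNX genes a higher one. The like-fold shares lay within the 95% Wilson interval of each gene, and that of all 4 genes lay just inside 65.7 to 88.3. The intervals take peaks as independent, which neighbours in 1 locus need not be.

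Between D14 and D56, 44 of the 48 had no overlap (91.7%, 80.4 to 96.7), against 74.4% of all D14 peaks and 82.7% of those of like fold, which lies within the interval. The numbers were 22 of 24 at Runx1, 13 of 14 at Runx2, 4 of 4 at Runx3 and 5 of 6 at Cbfb. The D56 input was the shallowest of the inputs, and its part in these shares was not tested. Here Cbfb too had a higher share than peaks of like fold, 83.3% against 71.1%, as did the RUNX genes. At equal list length by p-value, the 4 genes together had 6 sham, 7 D14 and 4 D56 peaks, and 3 of the 7 D14 peaks had no sham overlap (42.9%). The larger D14 number rests on peaks below that rank.

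**Figure D5:**
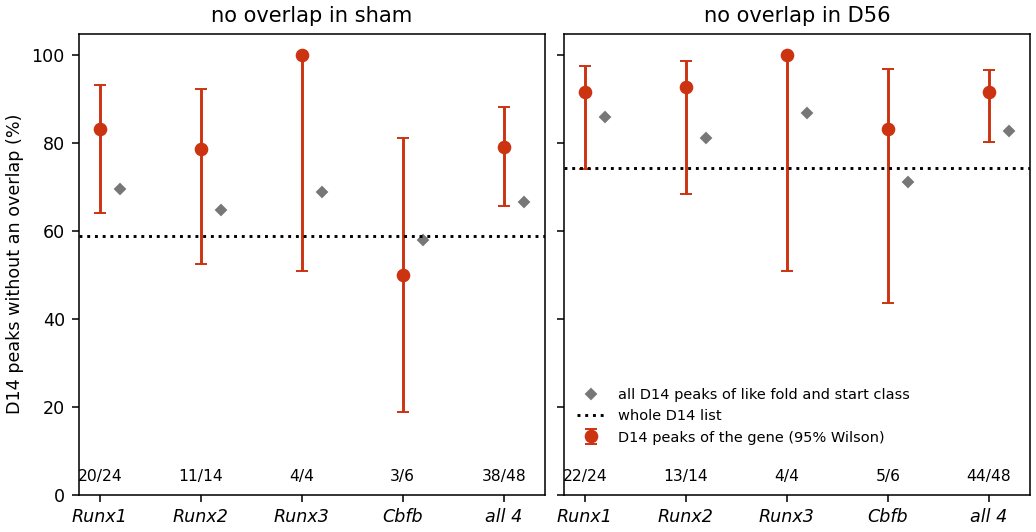
Share of D14 peaks without an overlap in sham (left) and at D56 (right), in percent, per gene, with 95% Wilson intervals, counts below, diamonds for D14 peaks of like fold and start class and a dotted line for the whole list. Runx1, Runx2 and Runx3 lie above their diamonds in both panels, with intervals that reach them. Cbfb lies below its diamond against sham and above it at D56, also with intervals that reach it.

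Runx1 and Runx2 held the strongest peaks that sham lacked. For D14 peaks of like fold and position, 65.6% had a sham overlap and 41.1% a D56 overlap. This class holds the Runx1 peaks at 92620794 (fold 10.38) and 92788387 (9.72) and the Runx2 peak at 44737968 (10.02), none of which was called in sham or at D56. For the peak over the proximal Runx1 start, 99.7% of like peaks were found in sham and 99.5% at D56, and for the Cbfb start 98.9% and 96.5%. Being called in every library is therefore usual for peaks of that strength at a start.

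Genes whose proteins work with RUNX factors were counted from lists by role. All 34 partner genes had a peak at D14, 31 in sham and 29 at D56, against the 73.3%, 60.3% and 53.7% of all genes given above. Of 12 corepressor genes, 12 had a peak in sham, 12 at D14 and 11 at D56. All 4 coactivator genes had one in each library. Genes for proteins that modify RUNX factors had one at 7, 8 and 7 of 8 in the same order, and partner transcription factors at 8, 10 and 7 of 10. More peaks at D14 than in sham were counted at 27 of the 34, against 51.4% of all protein-coding genes.

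The highest D14 folds among the partners were at Tle1 (48.56), a Groucho corepressor that binds the RUNX tail, Hdac3 (37.5), a histone deacetylase, Kat6b (33.27), a histone acetyltransferase, and Tle4 (33.0). Each fold is that of the strongest peak in the gene or the 10 kb on either side, and whether it lay at a neighbour was not examined. All are above the 20.18 of the strongest member peak. Peaks at D14 alone were found at 3 of the 34, like Runx3: Cdk6, a cyclin-dependent kinase (9 peaks), Fli1, an ETS factor (2), and Tal1, a blood transcription factor (1). Of all protein-coding genes, 12.6% had this pattern. Fewer peaks at D14 than in sham were counted at Smurf2, a ubiquitin ligase (1 and 4), and Yap1, a Hippo pathway coactivator (3 and 4). Jun, an AP-1 subunit, had more peaks at D56 than in sham (6 and 3).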

How the data were processed

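Runx1 ChIP-seq peak lists of 3 lung fibroblast libraries (sham, D14, D56) were analysed. The inputs enter through the peak calls. Build mm10, BWA, SAMtools and MACS2 are named in the submitters' processing notes. Per the file headers, MACS 2.0.10.20120913 called each library against its own input at a q-value cutoff of 0.01, scaling the larger data set to the smaller. The deposited lists give a pileup (signal), −log10 p and −log10 q, and a fold enrichment (ratio), made by the authors per library. The alignment settings are not stated in any label or header.

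Peaks on mitochondrial DNA were left out. Genes came from RefSeq (GRCm38.p6), and all 4 members and 34 partners matched by symbol. Overlap meant 1 bp or more. The 95% Wilson intervals count sampling of peaks only. The like-fold share is that of all D14 peaks in the same of 20 fold bins, at a start window or not. Python 3.11.15 with pandas 2.3.3 and scipy 1.17.1 was used, and the overlap, merging and letter searches were tested on simulated data. With 1 library per condition no test was made.

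Members, lists and rules were chosen with earlier results of these data known. Genes named are the members, their neighbours within 10 kb, the partners with the 4 highest D14 folds or peaks at D14 alone, and for each member the 3 genes of like span (20% shorter to 25% longer) with the nearest log2(peaks + 1) over the 3 libraries. Groups of peaks within 15 kb, the 18-base run, Smurf2, Yap1 and Jun, and the genes nearest the top peaks 10 to 100 kb away (Clic4, B3gnt9, 4931428F04Rik) were singled out after their values were seen. Alternatives were a −log10 q of 5, a fold of 5, equal list lengths, other gene windows, merging under 500 bp, and stricter overlaps. The RefSeq table gives no exons.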

Additional observations from a re-analysis of the deposited data

How the results depend on the processing

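Of 44 values for the counts and shares over the 4 genes under the alternatives, 34 stayed within 1.5 times the count or inside the interval of the share. At a fold of 5 or more the loci held 4 sham and 24 D14 peaks. At equal list length by p there were 6 sham and 7 D14 peaks, and by fold 7 D14 peaks. Under both equal-length settings 42.9% of D14 peaks had no sham overlap and 57.1% no D56 overlap, from 7 peaks. With 50 kb on either side the D56 count was 7. Leaving out peaks at starts of other protein-coding genes, a setting chosen after seeing the data, gave 8 sham, 46 D14 and 3 D56 peaks. The D14 count was above the sham and D56 counts under every alternative run except equal length by fold, where sham also had 7. Equal-length lists hold fewer peaks by construction. The cause of the other moves was not tested. No paired analysis was possible because each condition has 1 library. For single genes, 73 values stayed within these limits and 23 moved. Both tallies include values that could not move. The equal length, 15009, is that of the whole D56 list, so D56 counts were fixed there. Runx3 had no sham or D56 peak, so those counts could not change under stricter cutoffs, a narrower window or merging. The D56 input held the fewest tags, 19949187, and a peak that was not called there is not shown to be absent.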

Other observations

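Beyond the 10 kb flanks, the peaks near Runx1 and Runx2 were all called at D14 alone, unlike those within the flanks. In the whole D14 list, 58.0% of peaks had no overlap in either other library. In the stretch from 10 to 100 kb on either side, Runx1 had 9 D14 peaks and none in the other libraries, with a top fold of 5.5 at 92867157 to 92867355, 41.2 kb from the gene. Runx2 had 2, also at D14 alone (top fold 3.89). Around Runx3 D14 gave 9 peaks, sham 3 and D56 1, and the strongest in each library lay 0.1 to 0.2 kb from Clic4, a chloride channel family gene (fold 34.23 at D14, 15.6 in sham and 16.6 at D56). Around Cbfb there were 16, 7 and 5, led at D14 by a peak inside B3gnt9 (17.06) and in sham and at D56 by 1 inside 4931428F04Rik (7.84 and 7.24). The strongest peaks near Runx3 thus lay at a neighbour and not at Runx3.

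The genes with peak numbers most like each member's, among genes of like span, were counted over 3 libraries only. For Runx1 they were Atxn7l1 (5 sham, 19 D14 and 2 D56 peaks), Rnf150 (4, 17 and 2) and Chst11 (4, 17 and 2), at distances of 0.42, 0.47 and 0.47 on the log2 scale. For Runx2 they were Rptor (3, 13 and 1), Apbb2 (3, 16 and 1) and Baz2b (3, 12 and 1). Runx3 shared its numbers exactly with 17 genes, of which Unc5a, Sh3tc2 and A630023A22Rik were the nearest in span, and Cbfb with 5, among them Stimate, Lasp1 and Nxpe3.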
